A study of Mus musculus with 8 samples.

Results

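The genes described here carry arginine into the cell, break it down or rebuild it, and turn its product ornithine into polyamines. They were taken as the rows of the deposited count table whose gene name is Arg1, Arg2, Nos2, Slc7a2, Ass1, Odc1, Srm, Sms, Sat1 or Oaz1. All 10 were found among the 55450 genes of the table, and all 10 passed the filter on low counts that left 15975 genes for testing. Counts came from 8 RNA sequencing libraries of mouse neutrophils that a cell sorter divided by surface CD71, the receptor for iron-carrying transferrin. Neutrophils were taken from SB28 glioma tumours grown in mouse brain (2 libraries labelled CD71+ and 2 labelled CD71-) or grown in vitro out of naive bone marrow (2 libraries labelled CD71+ and 2 labelled CD71-). The sources used here give no strain, genotype, age, sex, culture medium or number of animals, and the labels name no drug or genetic change in any group. Tumour and culture libraries differ in origin, host and handling at once, and these cannot be told apart. Whether the 2 libraries of a group had separate animals or cultures as their source is not stated, so the p-values reflect the spread among these libraries alone, and that spread may be technical.

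Arginine is drawn on by competing enzymes. Arginases cut it to ornithine and urea, and nitric oxide synthase oxidises it to nitric oxide and citrulline. Ornithine decarboxylase then makes putrescine, which spermidine synthase and spermine synthase lengthen into the polyamines needed for growth and translation, while an acetylating enzyme marks polyamines for breakdown or export and antizyme sends ornithine decarboxylase to the proteasome. In tumours, arginase of myeloid cells is known for depleting the arginine that T cells need.

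Total counts were 9598959 to 22615813 per library. Levels are given as CPM, counts relative to library sizes scaled by TMM, a method that centres the bulk of genes between libraries. On this scale 3 counts, the most that a count of 0 allows, came to 0.0915 to 0.419 CPM, which covers counting error only. Mitochondrial transcripts took 0.829% and 1.04% of counts in the tumour libraries labelled CD71+ and 0.413% and 0.202% in those labelled CD71-, against 1.45% and 2.17% in CD71+ and 7.09% and 12% in CD71- cultures. Tfrc, the gene of CD71, had 103.1 and 107.9 CPM in tumour CD71+ libraries and 186.7 and 144.8 CPM in tumour CD71- libraries, and 115.6 and 114.6 CPM in culture CD71+ and 130.5 and 94.3 CPM in culture CD71- libraries. Its transcript did not follow the sort label in either origin, and every fraction is called by its label. Summed CPM of 25 mature neutrophil markers was 28661 to 31682 in tumour CD71+, 60619 to 61509 in tumour CD71-, 5217 to 6526 in culture CD71+ and 10904 to 11797 in culture CD71- libraries. Summed CPM of 16 macrophage and monocyte markers was 4318 to 4860 in tumour CD71+ libraries, against 667.6 to 684.7 in tumour CD71-, 980.8 to 1114 in culture CD71+ and 646.01 to 691.5 in culture CD71- libraries. In bulk RNA of a sorted fraction, fewer cells of a type and less RNA per cell cannot be told apart.

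RefSeq promoter windows on GRCm38.p6, from 250 bases before to 50 after the start, were at hand for 5 of the 10 genes (Ass1, Odc1, Sms, Sat1 and Oaz1, in 6 windows because Sms has 2). Those of Ass1 and of the upstream Sms start are shown because both genes rose in the tumour fraction labelled CD71+ and both windows hold CACGTG, the palindromic E-box read by Myc-type factors. The Odc1 window is shown as one without it, and bases outside the windows were not searched. CACGTG is in capitals and all sequences run 5′ to 3′ on the strand of the gene.
Ass1, chr2:31470020-31470319, plus strand: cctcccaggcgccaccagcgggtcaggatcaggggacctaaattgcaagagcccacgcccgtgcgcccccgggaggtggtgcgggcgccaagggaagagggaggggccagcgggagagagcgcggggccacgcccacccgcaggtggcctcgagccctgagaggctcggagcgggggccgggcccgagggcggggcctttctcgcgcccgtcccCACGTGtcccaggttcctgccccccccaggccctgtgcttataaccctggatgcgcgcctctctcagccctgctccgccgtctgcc
Sms, chrX:157492238-157492537, minus strand: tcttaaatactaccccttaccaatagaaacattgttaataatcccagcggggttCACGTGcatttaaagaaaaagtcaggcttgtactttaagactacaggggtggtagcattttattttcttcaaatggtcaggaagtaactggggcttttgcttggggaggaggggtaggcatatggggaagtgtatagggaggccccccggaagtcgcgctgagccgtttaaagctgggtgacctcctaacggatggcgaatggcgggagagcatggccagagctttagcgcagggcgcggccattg
Odc1, chr12:17544623-17544922, plus strand: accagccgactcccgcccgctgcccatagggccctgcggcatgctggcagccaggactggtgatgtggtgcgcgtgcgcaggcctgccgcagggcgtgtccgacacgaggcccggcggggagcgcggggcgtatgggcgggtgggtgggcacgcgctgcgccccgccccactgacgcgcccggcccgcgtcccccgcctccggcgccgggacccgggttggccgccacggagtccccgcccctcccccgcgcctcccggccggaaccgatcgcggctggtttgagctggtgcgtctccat
CACGTG stood once in each of the Ass1 and upstream Sms windows and in none of the other 4. It was present in 7.15% of all 32851 windows of the same length. ACGTG, the core of the hypoxia response element, was matched in the same windows only inside that hexamer, once on each strand, against 19.6% of all windows with a match. TTC followed by GAA after any 4 bases, the form of the STAT6 site, was in none of the 6 windows and in 6.95% of all windows. Other spacings of this palindrome were not searched. A match describes letters only.

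In the tumour, the libraries labelled CD71+ had more transcript of 5 of the 10 genes (Arg1, Slc7a2, Ass1, Srm and Sms) and less of Arg2 and Sat1 than those labelled CD71-, while Nos2, Odc1 and Oaz1 did not pass the test. The first 5 hold an arginase, an arginine carrier, a synthetic enzyme for arginine and both aminopropyl transferases. Among all genes, 43.5% passed in this comparison, 26.2% higher and 17.3% lower, against which stand 7, 5 and 2 of the 10 genes. The median log2 fold change was 0.86 over the 10 genes and 0.13 over all genes tested.

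Arg1, the cytosolic arginase of myeloid cells and liver (ENSMUSG00000019987.9, mm10 chromosome 10, 24915221 to 24927484, minus strand, 7 exon blocks), had 332.9 and 286.9 CPM in tumour CD71+ libraries and 37.3 and 21.3 CPM in tumour CD71- libraries. In culture it had 587.5 and 450.4 CPM in CD71+ libraries and 241.1 and 337.9 CPM in CD71- libraries. The low group was tumour CD71-, below all other libraries, and the highest was culture CD71+. Between these lay tumour CD71+ and culture CD71-, whose libraries overlapped. The tumour fold was 10.6 (log2 3.40, SE 0.27, adjusted p = 2.8e-06) and the culture fold 1.79 (log2 0.84, SE 0.24, adjusted p = 0.0327), both from edgeR's quasi-likelihood test (Benjamini-Hochberg adjusted), the source of all adjusted p values here. The difference between these 2 effects, tumour minus culture, was 2.56 on the log2 scale (SE 0.36, adjusted p = 0.000885). The culture call was lost without culture CD71- replicate 1 (0.64, adjusted p = 0.142), and also without culture CD71+ replicate 1 (0.65, adjusted p = 0.249) and in a fit of the 4 culture libraries alone (0.81, adjusted p = 0.0596), where the adjusted p over 15 alternatives ran from 3.63e-05 to 0.249.

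Arg2, the mitochondrial arginase (ENSMUSG00000021125.6, chromosome 12, 79130777 to 79156301, plus strand), ran the other way. Its level was 536.1 and 535.1 CPM in tumour CD71+ libraries and 1204 and 1171 CPM in tumour CD71- libraries. In culture it was 41.3 and 32.9 CPM in CD71+ libraries and 99.4 and 72.2 CPM in CD71- libraries. No group overlapped another, and both tumour groups lay above both culture groups. Arg2 fell by a log2 value of 1.15 in the tumour (SE 0.19, adjusted p = 0.000387) and by 1.21 in culture (SE 0.19, adjusted p = 0.000803), and the difference between the effects was 0.06 (SE 0.26, adjusted p = 0.912). Scaled so that 25 mature neutrophil genes have the same mean level in every library, both falls lost their call, at -0.19 (adjusted p = 0.486) in the tumour and -0.43 (adjusted p = 0.113) in culture. These were the highest adjusted p values among 15 alternatives each, and the lowest were 9.4e-11 and 1.19e-08. Exons of Arg2 share 285 bases with Vti1b on the opposite strand, and whether counting used strand is not given in the sources used here. Vti1b had 2896 counts in all 8 libraries together, against 33115 for Arg2.

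**Figure D1:**
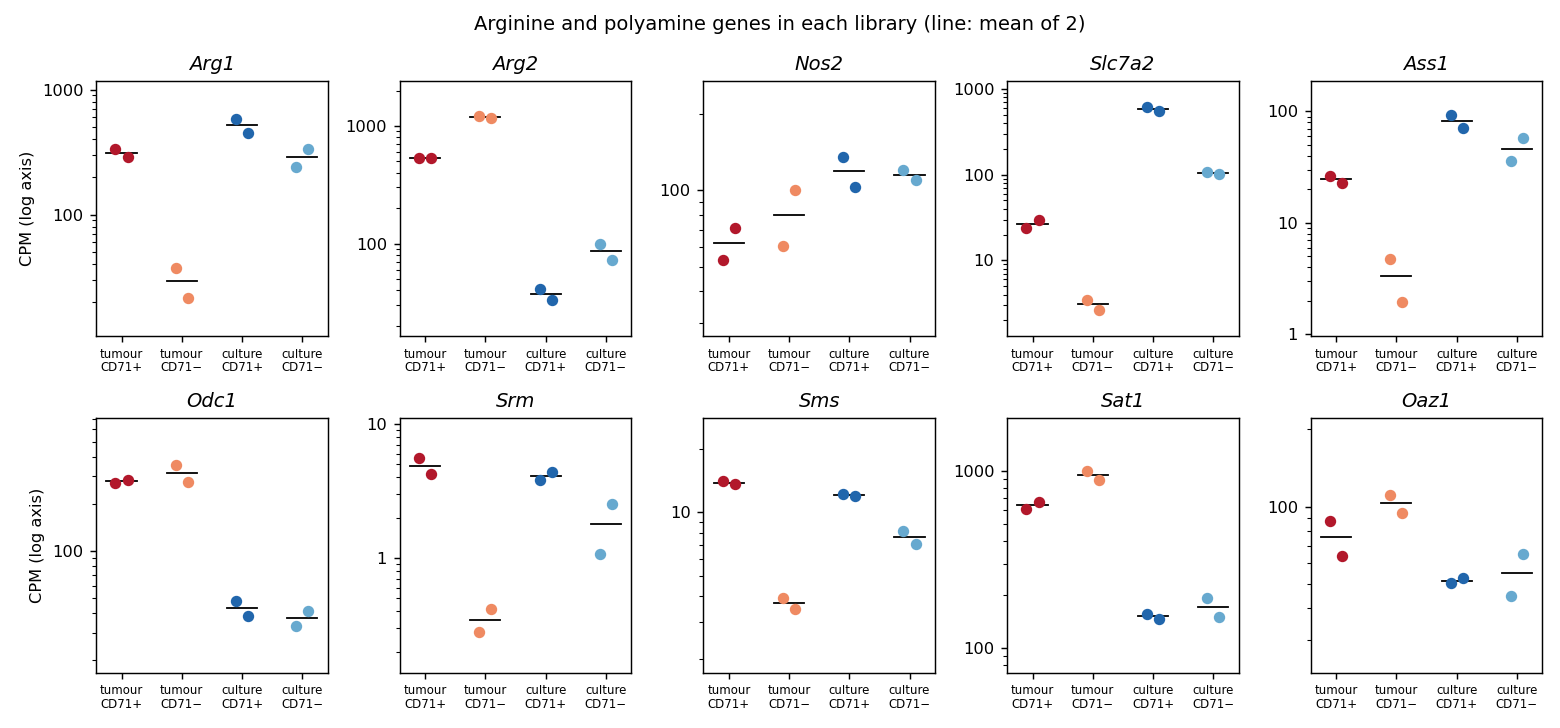
CPM of each of the 10 genes in each library, on log axes, with the tumour CD71+, tumour CD71-, culture CD71+ and culture CD71- groups from left to right, points for libraries and a line for the mean of 2. Arg1, Slc7a2, Ass1, Srm and Sms are lowest in tumour CD71- libraries, where Arg2 and Sat1 are highest.

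Because the arginase genes ran opposite ways, their ratio within a library, which no scaling can change, was taken per kilobase of exon. Exon length was the merged length over all annotated transcripts, so levels compared between genes depend on that choice. Arg1 stood at 0.398 and 0.344 of Arg2 in tumour CD71+ libraries and at 0.0198 and 0.0117 in tumour CD71- libraries. In culture CD71+ libraries it was 9.12 and 8.78 times Arg2, and in culture CD71- libraries 1.56 and 3.002 times. Arg2 was thus the more abundant arginase transcript in all 4 tumour libraries and Arg1 in all 4 culture libraries, with no overlap between the groups.

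Nos2, the inducible nitric oxide synthase (ENSMUSG00000020826.8, chromosome 11, 78920787 to 78960254, plus strand), had 53.2 and 71.2 CPM in tumour CD71+ libraries and 60.04 and 100.04 CPM in tumour CD71- libraries. In culture it had 135.4 and 102.9 CPM in CD71+ libraries and 120.5 and 110.1 CPM in CD71- libraries. The fractions overlapped within both origins. The log2 fold change was -0.36 in the tumour (SE 0.24, adjusted p = 0.234) and 0.05 in culture (SE 0.23, adjusted p = 0.927). The tumour value was 0.63 and passed when scaled on mature neutrophil genes (adjusted p = 0.0264), and was -0.84 and passed without tumour CD71- replicate 1 (adjusted p = 0.0226), with adjusted p values of 0.0226 to 0.882 over 15 alternatives. Per kilobase, Arg1 was 12.4 and 7.97 times Nos2 in tumour CD71+ libraries and 1.23 and 0.422 times in tumour CD71- libraries, against 8.60 and 8.67 times in culture CD71+ and 3.96 and 6.08 times in culture CD71- libraries. The 2 tumour CD71- libraries lay on either side of equal amounts, and all others held several times more Arg1.

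Slc7a2 is a cationic amino acid carrier that brings arginine into the cell (ENSMUSG00000031596.15, chromosome 8, 40862396 to 40922308, plus strand). It had 23.9 and 29.9 CPM in tumour CD71+ libraries and 3.49 and 2.63 CPM in tumour CD71- libraries. The cultures had 618.6 and 548.8 CPM in CD71+ libraries and 107.7 and 103.2 CPM in CD71- libraries. All 4 groups were apart, with each CD71+ group above the CD71- group of its origin and the cultures far above the tumour. The fold was 8.78 in the tumour (log2 3.13, SE 0.23, adjusted p = 7.87e-07) and 5.53 in culture (log2 2.47, SE 0.18, adjusted p = 3.44e-06). Both calls held under all 15 alternatives each. The effects differed by 0.67 (SE 0.29, adjusted p = 0.135), which passed only with total counts (0.92, adjusted p = 0.0489) among 14 alternatives, whose adjusted p values ran up to 0.545.

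Ass1, which makes argininosuccinate on the way from citrulline back to arginine (ENSMUSG00000076441.9, chromosome 2, 31470207 to 31520672, plus strand), had 26.4 and 22.8 CPM in tumour CD71+ libraries and 4.75 and 1.94 CPM in tumour CD71- libraries. In culture it had 93.6 and 70.3 CPM in CD71+ libraries and 35.7 and 57.2 CPM in CD71- libraries. As with Arg1, tumour CD71- was lowest and culture CD71+ highest. Ass1 rose 7.35-fold in the tumour (log2 2.88, SE 0.36, adjusted p = 8.47e-05), a log2 value of 3.51 without tumour CD71- replicate 1 and 2.26 without tumour CD71- replicate 2, both passing. Its value in culture was 0.82 (SE 0.28, adjusted p = 0.0608), which passed under 4 of 15 alternatives. The difference between the effects was 2.05 (SE 0.46, adjusted p = 0.0106), 2.69 without tumour CD71- replicate 1 and lost without tumour CD71- replicate 2 (1.45, adjusted p = 0.0912, the highest of 14 alternatives, with 5.22e-07 the lowest). A processed pseudogene, Gm5424, matches Ass1 at 99.5% over 1240 bases, so reads could be split between them. It had 156 counts in all, against 6904 for Ass1.

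Downstream of ornithine, Odc1 is the first and rate-limiting enzyme of polyamine synthesis (ENSMUSG00000011179.8, chromosome 12, 17544794 to 17551505, plus strand). It had 270.6 and 286.7 CPM in tumour CD71+ libraries and 356.3 and 275.9 CPM in tumour CD71- libraries, against 47.6 and 38.3 CPM in culture CD71+ and 33.3 and 41.1 CPM in culture CD71- libraries. Fractions overlapped within each origin, and the tumour libraries lay above all culture libraries. The log2 fold change was -0.18 in the tumour (SE 0.18, adjusted p = 0.442) and 0.21 in culture (SE 0.19, adjusted p = 0.488). Scaled on mature neutrophil genes, both were positive and passed, at 0.76 (adjusted p = 0.00997) and 0.98 (adjusted p = 0.00322), with adjusted p up to 0.667 and 0.962 over the 15 alternatives each. Odc1 has 11 near-identical processed copies, with 142 counts in all against 14087.

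Srm, spermidine synthase (ENSMUSG00000006442.10, chromosome 4, 148591503 to 148594993, plus strand), was low throughout. It had 5.58 and 4.24 CPM in tumour CD71+ libraries and 0.279 and 0.416 CPM in tumour CD71- libraries, where these stand for 2 and 3 counts. In culture it had 3.81 and 4.39 CPM in CD71+ libraries and 1.07 and 2.54 CPM in CD71- libraries. Tumour CD71- was lowest, and the CD71+ groups of both origins overlapped. Summed over libraries, 103 counts stood against 5 in the tumour, a scaled ratio of 14.1 with an exact 95% interval of 5.84 to 44.3 that covers counting error only. The tumour call passed (log2 3.79, SE 0.64, adjusted p = 0.000493), and the culture value was 1.23 (SE 0.44, adjusted p = 0.0749).

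Sms, spermine synthase (ENSMUSG00000071708.11, chromosome X, 157443855 to 157492287, minus strand), had 14.04 and 13.6 CPM in tumour CD71+ libraries and 3.91 and 3.46 CPM in tumour CD71- libraries. The cultures had 12.2 and 11.99 CPM in CD71+ libraries and 8.17 and 7.07 CPM in CD71- libraries. Each CD71+ group was above its CD71- group, and tumour CD71- was lowest. The tumour rise was 3.74-fold (log2 1.90, SE 0.29, adjusted p = 0.000248), and the culture value was 0.66 (SE 0.25, adjusted p = 0.0911). The differences between the effects, 2.56 for Srm (SE 0.82, adjusted p = 0.0488) and 1.24 for Sms (SE 0.38, adjusted p = 0.0426), were near the threshold. They passed under 4 and 3 of 14 alternatives, with adjusted p from 0.0111 to 0.214 for Srm and 0.0164 to 0.191 for Sms. The Srm value was 1.84 without culture CD71- replicate 2. Processed copies of Sms, 7 in number, had 37 counts in all against 1305 for Sms. In the low group their weight was larger, with 5 copy counts beside 28 of Sms and 3 beside 25 in the tumour CD71- libraries, against 0 beside 146 and 3 beside 144 in the tumour CD71+ libraries.

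The genes that hold polyamines down were both expressed. Sat1, the acetyltransferase that starts polyamine breakdown (ENSMUSG00000025283.15, chromosome X, 155213132 to 155216449, minus strand), had 610.5 and 667.4 CPM in tumour CD71+ libraries and 996.3 and 887.8 CPM in tumour CD71- libraries. The cultures had 156.6 and 145.8 CPM in CD71+ libraries and 190.9 and 149.03 CPM in CD71- libraries. The tumour fractions were apart and the culture fractions overlapped. Sat1 fell by 0.56 in the tumour (SE 0.17, adjusted p = 0.0178), and was at -0.17 in culture (SE 0.17, adjusted p = 0.549). The tumour call was lost without tumour CD71+ replicate 1 (adjusted p = 0.112) or replicate 2 (adjusted p = 0.0565), and the sign turned with total counts (0.01, adjusted p = 0.991) and on mature neutrophil genes (0.39, adjusted p = 0.148), over a range of 0.000105 to 0.991 in 15 alternatives.

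Oaz1, antizyme (ENSMUSG00000035242.15, chromosome 10, 80826656 to 80829290, plus strand), had 88.1 and 64.2 CPM in tumour CD71+ libraries and 111.1 and 94.6 CPM in tumour CD71- libraries, against 50.4 and 52.4 CPM in culture CD71+ and 44.9 and 65.3 CPM in culture CD71- libraries. The tumour groups did not overlap, yet the log2 fold change of -0.43 (SE 0.21) missed the threshold (adjusted p = 0.11). It passed under 4 of 15 alternatives, among them DESeq2 size factors (-0.65, adjusted p = 0.0219), and its sign turned with total counts (0.12, adjusted p = 0.653) and on mature neutrophil genes (0.51, adjusted p = 0.104), over a range of 0.0219 to 0.653. Its protein is made by ribosomal frameshifting, which a transcript count does not measure. Oaz1-ps, a processed copy, had 93 counts against 7725.

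Within a library, Odc1 per kilobase was 2.31 and 3.36 times Oaz1 in tumour CD71+ libraries and 2.41 and 2.19 times in tumour CD71- libraries, against 0.709 and 0.549 in culture CD71+ and 0.557 and 0.473 in culture CD71- libraries. Per kilobase, the enzyme's transcript thus exceeded that of its inhibitor in all 4 tumour libraries and lay below it in all 4 culture libraries. By counts alone the order was the same, yet near equal in culture CD71+ replicate 1, with 1560 for Odc1 and 1652 for Oaz1. Against Sat1 the same transcript stood at 0.361 and 0.350 in tumour CD71+ and 0.291 and 0.253 in tumour CD71- libraries, and at 0.247 and 0.214 in culture CD71+ and 0.142 and 0.224 in culture CD71- libraries. Ass1 was 0.0733 of Arg1 in both tumour CD71+ libraries, against 0.118 and 0.0839 in tumour CD71-, 0.147 and 0.144 in culture CD71+ and 0.137 and 0.156 in culture CD71- libraries.

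**Figure D2:**
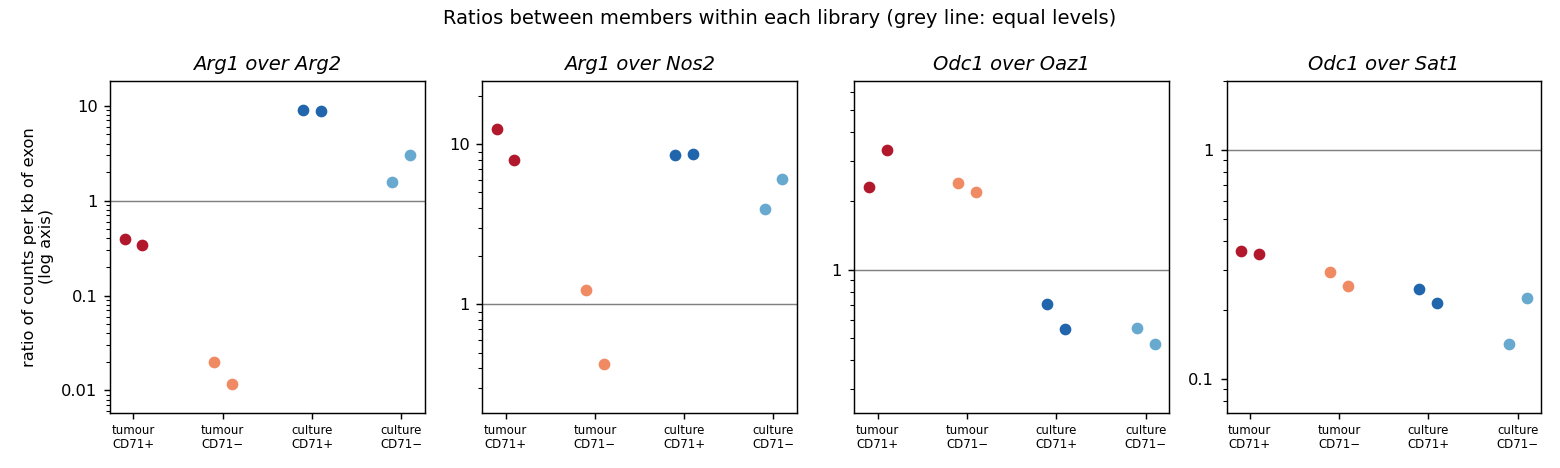
Within-library ratios of transcripts per kilobase of exon, on log axes, for tumour CD71+, tumour CD71-, culture CD71+ and culture CD71- libraries from left to right. Each point is 1 library, and the grey line marks equal amounts. Arg1 over Arg2 lies under the line in the tumour and over it in culture, and Odc1 over Oaz1 does the reverse.

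Ranked by mean CPM per kilobase of exon, Arg2 led both tumour groups, with 375.1 in CD71+ and 831.7 in CD71- libraries, and Sat1 was next with 230.3 and 339.6. Arg1 led both culture groups, with 232.9 in CD71+ and 129.95 in CD71- libraries. Slc7a2 was next in culture CD71+ at 63.9, and 7th in culture CD71- at 11.5. In culture CD71- libraries Sat1 (61.3 ± 10.7) and Arg2 (60.1 ± 13.5) were closer than their SDs (n = 2), as were Nos2 (27.0 ± 5.20) and Arg2 (26.0 ± 4.17) in culture CD71+ libraries. Srm and Sms were the lowest pair in culture, at 2.56 and 2.01 in CD71+ and 1.13 and 1.27 in CD71- libraries.

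In culture, 2 of the 10 genes (Arg1 and Slc7a2) were higher and 1 (Arg2) lower in the libraries labelled CD71+. Among all genes 16.2% passed, 7.88% higher and 8.36% lower. The median log2 fold change was 0.43 over the 10 genes, against 0.03 over all genes tested. The mitochondrial share, higher in culture CD71- libraries, moved with this comparison, and its part was not tested. With total counts the count was 5 higher and 1 lower, and on mature neutrophil genes 9 higher and 0 lower. The difference between the CD71 effects passed for 4 of 10, all with a larger effect in the tumour, against 15.5% of all genes, 10.8% positive and 4.71% negative. The median difference was 0.36, against 0.18 over all genes. In the tumour the split was 5 higher and 3 lower with DESeq2 size factors and 7 higher and 0 lower on mature neutrophil genes. Over all genes, scaling moved the tumour split of 4182 higher and 2769 lower to 6787 and 491 with total counts.

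**Figure D3:**
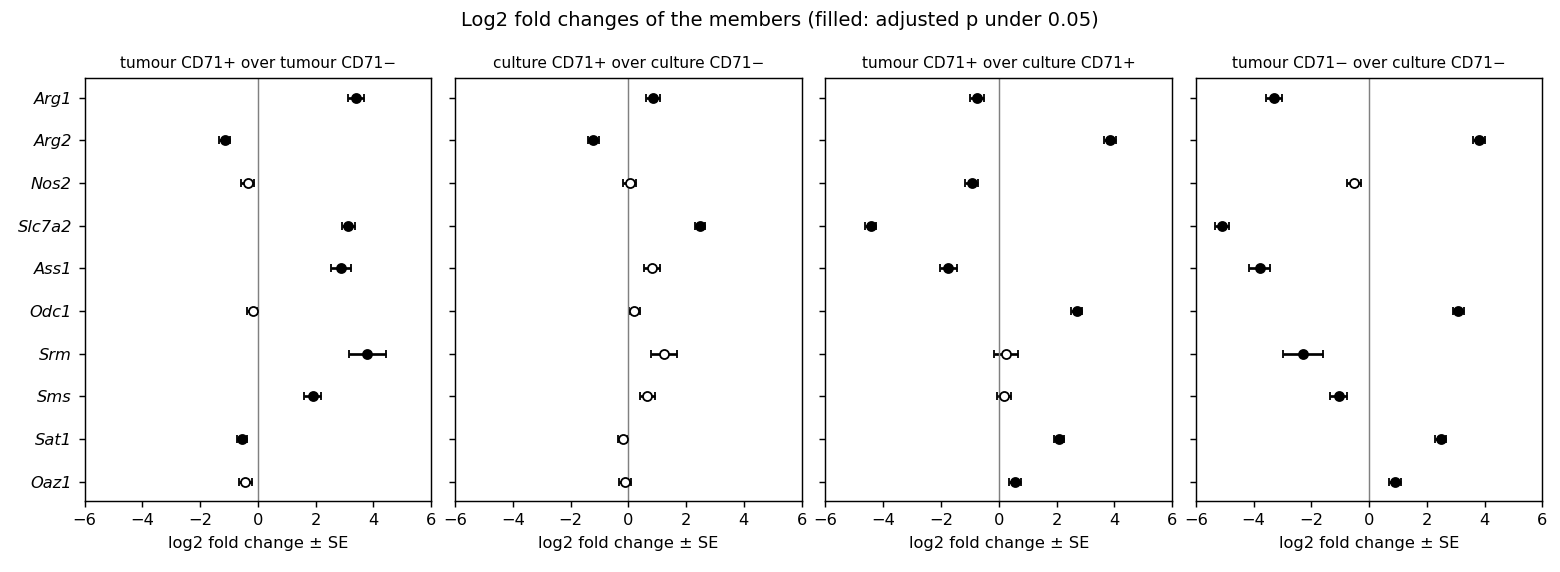
log2 fold change and its SE for each of the 10 genes in 4 comparisons, CD71+ over CD71- in tumour and in culture and tumour over culture in each fraction, with filled points where the adjusted p is under 0.05. Rises of Arg1, Slc7a2, Ass1, Srm and Sms stand in the tumour panel, and fewer pass in culture.

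Macrophage and monocyte markers moved with these changes. In the tumour, 15 of 15 tested were higher in CD71+ libraries (median log2 fold change 3.46), as were 8 of 8 microglial markers (3.47). Of 25 mature neutrophil markers, 21 were lower (-0.97). Among all genes, 26.2% were higher and 17.3% lower. The neutrophil count depends on the scaling, with 7 of 25 lower with total counts (-0.42) and 24 with DESeq2 size factors (-1.19). C1qa, a complement gene of macrophages, averaged 445.4 ± 49.0 CPM in tumour CD71+ libraries and 40.3 ± 9.03 CPM in tumour CD71- libraries (SD, n = 2 each), while Mrc1, the mannose receptor, averaged 78.4 ± 15.7 and 4.10 ± 0.51 CPM. In culture, 10 of 15 macrophage markers were higher in CD71+ libraries (1.95), beside 7.88% of all genes. C1qa averaged 0.556 ± 0.249 CPM in culture CD71+ libraries and was at 0 in both culture CD71- libraries, which also lacked Cd163. Other markers of the list were expressed there, as the 16 summed to 980.8 to 1114 CPM in culture CD71+ and 646.01 to 691.5 CPM in culture CD71- libraries. The part of these cells in the tumour and culture values was not tested. Cell cycle genes moved too, with 11 of 15 higher in tumour CD71+ (2.01) and 5 of 15 in culture CD71+ libraries (1.0). The shares of all genes were 26.2% and 7.88%, and the part of cell cycle genes in the Srm and Sms values was not tested.

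Of 12 other genes seen with arginase in alternatively activated macrophages, 6 were higher and 2 lower in tumour CD71+ libraries (median log2 fold change 3.34), beside 26.2% and 17.3% of all genes. In culture 6 were higher and 0 lower (2.23), beside 7.88% and 8.36%. Summed CPM of the 12 was 1435.8 to 1456.5 in tumour CD71+ and 1652.3 to 2018.8 in tumour CD71- libraries. The sum was thus lower in tumour CD71+ libraries, opposite to the median. For culture the sum was 3297.3 to 3504.8 in CD71+ and 1526.9 to 1633.5 in CD71- libraries. Chil3, a chitinase-like protein, averaged 564.7 ± 138.8 CPM in tumour CD71+ and 575.5 ± 397.4 CPM in tumour CD71- libraries, and 2917 ± 141.6 CPM in culture CD71+ and 1258 ± 62.8 CPM in culture CD71- libraries (SD, n = 2 each). Mgl2, a lectin of the same cells, averaged 4.08 ± 1.96 CPM in tumour CD71+ and 0.139 ± 0.001 CPM in tumour CD71- libraries. The latter value lay under the 0.419 and 0.416 CPM of 3 counts there, so its small SD is no measure of precision. In culture Mgl2 averaged 105.9 ± 3.86 CPM in CD71+ and 5.86 ± 2.35 CPM in CD71- libraries.

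Between origins, the CD71+ libraries of the tumour had more Arg2, Odc1, Sat1 and Oaz1 and less Arg1, Nos2, Slc7a2 and Ass1 than those of culture. In this comparison 57.9% of all genes passed, 30.3% higher and 27.6% lower, and the share of 8 in 10 is read against that. Total counts moved the median of all genes by -0.675 here and by -0.925 in the comparison of CD71- libraries, so levels between origins depend on the scaling by more than a factor of 1.5. Slc7a2 fell by a log2 value of 4.44 (SE 0.20, adjusted p = 5.19e-10) and Ass1 by 1.74 (SE 0.29, adjusted p = 0.000209). Arg2 was 14.4-fold higher (log2 3.85, SE 0.21, adjusted p = 3.06e-09) and Odc1 6.49-fold higher (log2 2.70, SE 0.20, adjusted p = 4.93e-08). Arg1 fell by 0.74 (SE 0.24, adjusted p = 0.0188), a call lost without culture CD71+ replicate 1 (adjusted p = 0.12), and also without tumour CD71+ replicate 2 (adjusted p = 0.0764), over a range of 6.95e-08 to 0.12. Oaz1 was at 0.57 (SE 0.21, adjusted p = 0.0322) and passed as higher under 9 of 15 alternatives. Its call was lost with no filter (adjusted p = 0.062), without culture CD71+ replicate 1 (0.163) or 2 (0.12) and without tumour CD71+ replicate 1 (0.324), and its sign turned with total counts and on mature neutrophil genes, over a range of 1.38e-05 to 0.604. Srm (0.26, SE 0.42, adjusted p = 0.611) and Sms (0.19, SE 0.25, adjusted p = 0.526) did not pass.

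Among CD71- libraries, Arg2, Odc1, Sat1 and Oaz1 were again higher in the tumour, and Arg1, Slc7a2, Ass1, Srm and Sms lower, with 67.1% of all genes passing, 30.3% higher and 36.8% lower. Arg1 fell by 3.30 (SE 0.27, adjusted p = 2.62e-07), Slc7a2 by 5.10 (SE 0.23, adjusted p = 4.24e-10) and Ass1 by 3.79 (SE 0.36, adjusted p = 1.02e-06). The Ass1 value was -4.41 without tumour CD71- replicate 1 and -3.17 without tumour CD71- replicate 2. Arg2 (3.79, SE 0.21, adjusted p = 2.22e-09) and Odc1 (3.09, SE 0.20, adjusted p = 1.21e-08) were higher. The Arg2 and Odc1 calls of both fractions held under all 15 alternatives each, whereas Sat1 did not pass on mature neutrophil genes in either fraction and Oaz1 turned negative there, and the Oaz1 sign also turned with total counts. Srm fell by 2.30 (SE 0.69, adjusted p = 0.00952) and Sms by 1.05 (SE 0.29, adjusted p = 0.00582). The Srm call was lost without tumour CD71- replicate 1 (adjusted p = 0.106), tumour CD71- replicate 2 (adjusted p = 0.0571) or culture CD71- replicate 2 (-1.62, adjusted p = 0.0662), over a range of 2.65e-06 to 0.106. That of Sms was lost without tumour CD71- replicate 2 (adjusted p = 0.0721) and in a fit of the 4 CD71- libraries alone (adjusted p = 0.06), over a range of 1.79e-08 to 0.0721. Nos2 was at -0.94 in the CD71+ comparison (SE 0.24, adjusted p = 0.00408) and -0.53 in the CD71- comparison (SE 0.24, adjusted p = 0.0639). These comparisons use libraries that also serve the fraction comparisons, and values are set side by side only.

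Of 49 other genes of arginine, ornithine, nitric oxide, creatine and polyamine metabolism, 39 were tested. In the tumour 13 were higher and 9 lower in CD71+ libraries (median log2 fold change 0.44), and in culture 6 were higher and 0 lower (0.15). All genes tested gave 26.2% higher and 17.3% lower in the tumour and 7.88% and 8.36% in culture, so the tumour shares of these 39 lay near the background. With total counts the tumour split was 19 and 1, and on mature neutrophil genes 25 and 0, so the lower calls depend on the scaling. Gatm, which joins arginine to glycine for creatine, had 40.1 and 52.7 CPM in tumour CD71+ and 4.47 and 5.27 CPM in tumour CD71- libraries, and 6.98 and 7.88 CPM in culture CD71+ and 8.29 and 11.6 CPM in culture CD71- libraries. It was high only in the tumour CD71+ group among the 4, with a rise of 3.25 (SE 0.28, adjusted p = 3.04e-06) and a difference between effects of 3.66 (SE 0.38, adjusted p = 0.000147).

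In the polyamine list, 5 of 11 tested were higher and 5 lower in tumour CD71+ libraries, beside 26.2% and 17.3% of all genes. Paox, an oxidase of acetylated polyamines, and Mtap, which salvages the methylthio by-product of spermidine and spermine synthesis, rose by 2.65 (SE 0.46, adjusted p = 0.000581) and 2.62 (SE 0.43, adjusted p = 0.000417). Counts in the tumour CD71- libraries were low, at 10 and 7 for Paox and 11 and 8 for Mtap. Mtap also rose in culture (1.68, SE 0.37, adjusted p = 0.00686), and its difference between effects did not pass (0.94, adjusted p = 0.289). Paox did not pass in culture (0.25, adjusted p = 0.698). Smox, spermine oxidase, had 1807 and 1160 CPM in tumour CD71+ and 3725 and 2892 CPM in tumour CD71- libraries, and 79.5 and 83.8 CPM in culture CD71+ and 77.9 and 81.9 CPM in culture CD71- libraries. Its tumour levels all lay above every culture level, and it fell by 1.16 in tumour CD71+ (SE 0.21, adjusted p = 0.000897). It was 4.18 higher on the log2 scale in tumour than in culture CD71+ libraries (adjusted p = 5.95e-09). Mat2b, a regulator of methionine adenosyltransferase, fell by 1.0 (SE 0.17, adjusted p = 0.000552).

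Of 6 arginine and ornithine carriers tested, 2 were higher and 1 lower in tumour CD71+ libraries, near the 26.2% and 17.3% of all genes, and 3 were higher in culture, beside 7.88%. Slc7a1, another arginine carrier, had 45.3 and 43.7 CPM in tumour CD71+ and 33.6 and 34.8 CPM in tumour CD71- libraries. In culture it had 23.8 and 25.3 CPM in CD71+ and 10.2 and 13.8 CPM in CD71- libraries. Its log2 fold change was 0.38 in the tumour (SE 0.20, adjusted p = 0.139) and 1.04 in culture (SE 0.20, adjusted p = 0.00347). Slc25a15, the mitochondrial ornithine carrier, had 2.98 and 3.95 CPM in tumour CD71+ and 1.40 and 1.25 CPM in tumour CD71- libraries, against 55.8 and 51.4 CPM in culture CD71+ and 20.96 and 20.5 CPM in culture CD71- libraries. Tumour libraries all lay below culture libraries, and it rose by 1.39 in the tumour (SE 0.34, adjusted p = 0.00475) and by 1.37 in culture (SE 0.21, adjusted p = 0.000657). Of 8 tested genes for nitric oxide and its cofactor, 3 were higher and 2 lower in tumour CD71+ libraries, which is near the shares of all genes. Gch1, the entry enzyme of tetrahydrobiopterin synthesis, had 177.9 and 141.8 CPM in tumour CD71+ and 278.7 and 257.5 CPM in tumour CD71- libraries, and 16.6 and 14.4 CPM in culture CD71+ and 12.02 and 9.79 CPM in culture CD71- libraries. The tumour fractions did not overlap. It fell by 0.75 in the tumour (SE 0.18, adjusted p = 0.00415). Cps1, the first step of the liver urea cycle, had no count in any library.

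**Figure D4:**
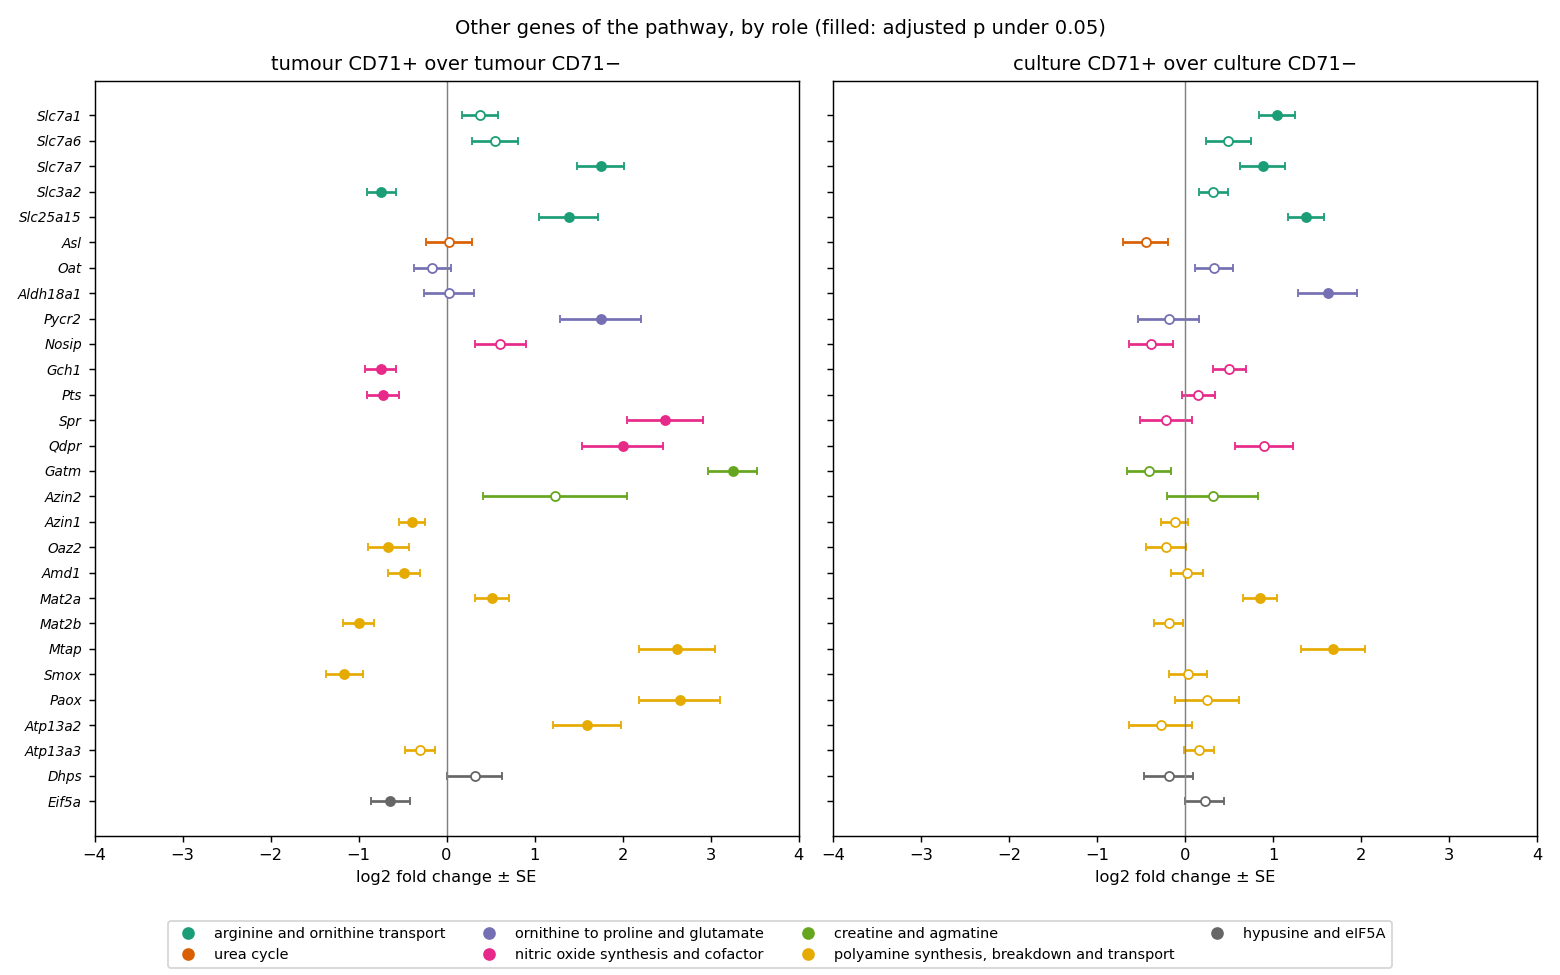
log2 fold change and SE of the 28 other pathway genes tested with a mean of at least 5 CPM in at least 1 group, in tumour (left) and culture (right), coloured by role. Points are filled where the adjusted p is under 0.05. Gatm stands apart in the tumour panel at 3.25 and is at -0.41 in culture.

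By the root mean square difference of log2 CPM centred per gene over the 8 libraries, among 15975 genes, profiles among the 5 most like Arg1 were E330020D12Rik (0.26), Nr2c1 (0.279), Slc41a2 (0.30) and A730017L22Rik (0.304). Averages of these genes in tumour CD71- libraries were 0.14, 0.418, 1.18 and 0.209 CPM, in the order given. There 3 counts came to 0.419 and 0.416 CPM, so their match in that group rests on low counts. Ass1 ranked 39th (0.427), and Arg2 15450th (3.44). The nearest to Nos2 were Ncoa6 (0.156), Ndufaf3 (0.159) and Rnf225 (0.168), and to Odc1 Herpud1 (0.125), Clec7a (0.16) and Igtp (0.164). Rnf225 was low too, with group averages of 0.285 to 0.729 CPM.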

How the data were processed

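Libraries were stranded, ribosome-depleted total RNA, per the labels' protocols. The authors deposited raw read counts per gene, not normalized, made with STAR and featureCounts on mm10 per the submitters' processing notes, which also name FastQC, cutadapt and DESeq2. Versions and the strand setting of counting are not given in the sources used here. All 55450 gene IDs matched GENCODE M21, from which coordinates were taken.

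From these counts, genes were filtered by filterByExpr, scaled by TMM and fitted as 4 group means over all 8 libraries with edgeR 4.0.16 in R 4.3.3 (4 residual degrees of freedom, common biological coefficient of variation 0.19). For 5 comparisons, p-values of edgeR's quasi-likelihood test were Benjamini-Hochberg adjusted over 15975 genes, and a gene passed under 0.05. Replicate pairs differed by chi-square values of 12.6 to 69.2 per degree of freedom. The test was also run on simulated counts with the same coefficient of variation, 0.19, for every gene and group. That setting does not copy the unequal spread of these replicates. Near copies were found with BLAST 2.17.0 (at least 400 aligned bases and 90% identity). Other pathway genes were drawn from up to 3 rises and 3 falls that passed per comparison, with a mean of at least 5 CPM. Aldh18a1, Spr, Azin2 and Qdpr also met this rule and are not described in the text. Slc7a1 and Cps1 are described outside it. Alternatives were DESeq2 1.42.0 size factors and Wald test, total counts, scaling on mature neutrophil genes, no filter, only the 4 libraries compared, a replicate block and leaving out each library. The members and lists were chosen with earlier results of these data known. Of the 5 genes with a profile most like Arg1, 1 is not reported here.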

Additional observations from a re-analysis of the deposited data

Results flagged for a closer look

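The effect of the CD71 label, CD71+ over CD71-, differed between tumour and culture by a test of the difference itself for 4 of the 10 genes. Among all genes 15.5% passed this test, 10.8% positive and 4.71% negative. Of the 39 other pathway genes tested, 5 passed as positive and 6 as negative. Among the 10 genes, the excess in the tumour was 2.56 for Arg1, 2.05 for Ass1, 2.56 for Srm and 1.24 for Sms on the log2 scale. The call for Arg1 held under all 14 alternatives, and that for Ass1 under 13 of them. Srm and Sms passed under 4 and 3 of 14. Groups of 2 libraries are too small to look for a library far from the others.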

How the results depend on the processing

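Of 740 values of single genes under an alternative, 647 kept their direction and side of the threshold, 18 changed sign without passing in either setting, 41 lost the call, 21 gained it and 13 reversed. With total counts, Sat1 in the tumour came to 0.01, and Oaz1 to -0.12 in CD71+ and -0.02 in CD71- libraries of tumour over culture. Scaled on mature neutrophil genes, the tumour values were 0.63 for Nos2, 0.76 for Odc1 and 0.39 for Sat1, the culture values 0.62 for Sat1 and 0.69 for Oaz1, the CD71+ values of tumour over culture -1.87 for Srm, -1.93 for Sms, -0.04 for Sat1 and -1.56 for Oaz1, and the CD71- value -1.38 for Oaz1. This scaling moved the median of all genes by 0.952 in the tumour, 0.791 in culture, -2.12 in CD71+ and -2.28 in CD71- libraries, and total counts by 0.559, 0.308, -0.675 and -0.925.

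Genes passing in culture were 3 of 10, against 6 with total counts and 9 on mature neutrophil genes, and over all genes 2595 against 7532 on mature neutrophil genes. For the difference, 4 of 10 became 2 with DESeq2 size factors, with its Wald test and with the replicate block; the cause was not tested. Leaving out 1 library gave 6 to 8 members in the tumour, 2 to 5 in culture, 1 to 3 for the difference, 6 to 8 in CD71+ and 8 to 9 in CD71- libraries, and over all genes 4495 to 7712, 826 to 2880, 966 to 3609, 7034 to 10537 and 8836 to 11216.

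The labels do not say whether samples with the same replicate number share a source. Correlations of deviations between groups lay between -0.138 and 0.0716, which shows no pairing by number. With 2 libraries per group these values cannot exclude a shared source. The replicate block gave 6335, 2135, 1997, 8717 and 10307 genes, and Srm (adjusted p = 0.0647) and Sms (adjusted p = 0.071) lost the difference. It changed no other call among the 10. Scaling moved splits of higher and lower over all genes. In culture, 1259 and 1336 became 2617 and 618 with total counts and 7305 and 227 on mature neutrophil genes. In the tumour they were 3454 and 3854 with DESeq2 size factors and 8758 and 33 on mature neutrophil genes.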
